A study of Mus musculus with 9 samples.

Results

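The genes described here encode the enzymes of cholesterol and fatty acid synthesis and the proteins that set their transcription, 34 genes in all, chosen by name. All 34 of 34 were found among the 16299 genes of the table. They comprise a sterol branch of 18 genes, a fatty acid branch of 10 genes, and 6 regulators and a sterol carrier. The measurements are RNA sequencing of melanocytes, the pigment cells of skin, sorted from mouse epidermis, in 3 groups of 3 libraries. Knockout back and knockout tail libraries came from the back and the tail epidermis of Spry1flox/flox k14-Cre-ERT2 mice. Control tail libraries came from tail epidermis of Spry1flox/flox mice, so every mouse carried the floxed alleles and the Cre alone marks a knockout. The Cre is fused to an oestrogen receptor domain and is driven by the keratin promoter of basal keratinocytes, so it acts mainly in the cells around the melanocytes. The labels give no age, sex or inducing agent, and there were no control back libraries. Nothing in them ties replicates to separate mice, and the p-values below may therefore reflect technical spread alone.

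Cholesterol is built from acetyl-CoA by way of mevalonate, isoprenoid diphosphates, squalene and lanosterol, and fatty acids are built from acetyl-CoA that is released from citrate, then elongated and desaturated. Both branches are switched on by the SREBP transcription factors, the products of Srebf1 and Srebf2, which sit as precursors in the endoplasmic reticulum. Scap escorts them to the Golgi for cleavage, and the Insig proteins hold Scap back when sterols are plentiful. Srebf2 is known mainly for the sterol genes and Srebf1 for the fatty acid genes. In skin, these pathways supply the barrier lipids of keratinocytes and the sebum of sebaceous glands.

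Promoters are shown for 3 members: Hmgcs1, which held the only sterol regulatory element found among the members, and Idi1 and Fads2, which passed the test between knockout back and control tail. Hmgcs1 passed in no comparison of the main fit. Elovl6 and Acly passed that test too, and their promoters are not shown. Each window spans the transcription start, on the gene's own strand, from RefSeq on GRCm38.p6. They lie at chr13:119690101-119690400 (+ strand) for Hmgcs1, chr13:8885356-8885655 (+ strand) for Idi1 and chr19:10101454-10101753 (- strand) for Fads2. Capitals mark a sterol regulatory element (TCACNCCAC) or a CCAAT box, which appears as ATTGG where it lies on the other strand.
Hmgcs1: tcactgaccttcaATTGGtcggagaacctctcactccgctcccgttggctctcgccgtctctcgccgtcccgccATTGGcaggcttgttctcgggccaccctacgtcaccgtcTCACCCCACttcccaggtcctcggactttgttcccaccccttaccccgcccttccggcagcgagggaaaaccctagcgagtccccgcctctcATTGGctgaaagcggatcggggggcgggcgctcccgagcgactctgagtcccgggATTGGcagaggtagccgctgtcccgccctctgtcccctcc
Idi1: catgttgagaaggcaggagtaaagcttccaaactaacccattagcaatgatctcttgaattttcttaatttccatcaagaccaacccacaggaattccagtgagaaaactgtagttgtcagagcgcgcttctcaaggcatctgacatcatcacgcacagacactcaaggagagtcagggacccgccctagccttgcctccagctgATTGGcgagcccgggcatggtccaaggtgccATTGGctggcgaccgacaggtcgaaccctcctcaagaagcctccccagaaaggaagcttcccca
Fads2: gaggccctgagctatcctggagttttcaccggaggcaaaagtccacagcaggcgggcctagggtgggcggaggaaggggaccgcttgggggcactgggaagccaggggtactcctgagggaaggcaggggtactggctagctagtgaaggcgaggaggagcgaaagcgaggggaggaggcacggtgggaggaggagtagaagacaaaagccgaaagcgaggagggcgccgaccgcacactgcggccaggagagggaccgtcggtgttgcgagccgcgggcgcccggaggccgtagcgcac

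Motifs were searched on both strands, and no match of one overlapped a match of the other in these 3 promoters. Promoters were present in the RefSeq table for 27 of the 34 members, 36 promoters in all. Scd1, Scd2, Fads1, Fdps, Fdft1, Sqle and Stard4 were not among them. The sterol regulatory element stood in 1 of the 36 member promoters (2.78%), at position -137 from the transcription start of Hmgcs1, and in 1.24% of all 32851 promoters of the table. The CCAAT box, which binds the NF-Y factor, stood in 23 of the 36 member promoters, 63.9%, against 37.4% of all promoters. An E-box (CANNTG), the other motif that SREBP proteins can bind, stood in 80.6% of member promoters and 72.3% of all promoters. Hmgcs1 had 4 CCAAT boxes and Idi1 had 2, and the Fads2 window held neither motif nor an E-box. Of the promoters not shown, that of Acly had 1 CCAAT box and that of Elovl6 held none of these motifs. A match describes letters only.

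Levels are given as normalised counts, that is, counts recovered from the deposited log2 values and scaled for library size. Recovered totals ran from 45.66 to 67.89 M (mega) counts per library. A shift between 2 libraries (knockout tail 3 and knockout back 3) and the other 7 had been removed from the deposited values with no allowance for group, so differences come from limma with group and this library set as terms. Normalised counts do not contain that step, so they still carry the shift, with a median size of 0.45 on the log2 scale. All 3 control libraries lie in the larger set. Statements below that every library of 1 group lay above or below another rest on these counts. Some of them do not hold on the deposited values. All 10 listed melanocyte markers were present, and their summed count (7 genes) was 875904 to 990274 in knockout back, 775897 to 922301 in knockout tail and 653710 to 662962 in control tail. Knockout back libraries 1 and 2 stood apart, with no counts for 4628 and 6127 genes, where each of the remaining 7 libraries lacked counts for 854 to 1739 genes. Spry1 itself had normalised counts of 2283, 0 and 746 in knockout back, 3590, 1758 and 587 in knockout tail and 1510, 1074 and 1285 in control tail. The groups overlapped, and a count over the whole gene in melanocytes does not check a deletion aimed at keratinocytes. In bulk RNA, fewer cells of a type and less RNA per cell cannot be told apart.

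The fatty acid branch stood closer to the sterol branch in knockout than in control melanocytes. As the mean of log2(normalised count + 1) over the 10 fatty acid members minus that over the 18 sterol members, the difference was -0.14, 0.90 and -0.32 in knockout back, -0.22, -0.30 and 0.00 in knockout tail, and -1.43, -1.39 and -1.0 in control tail. Every knockout library lay above every control library on this measure. The fatty acid mean was 12.30, 13.64 and 12.15 in knockout back, 12.25, 11.95 and 12.40 in knockout tail, and 11.42, 11.38 and 11.80 in control tail. The sterol mean was 12.43, 12.74 and 12.47 in knockout back, 12.47, 12.25 and 12.40 in knockout tail, and 12.85, 12.77 and 12.80 in control tail. Controls were therefore the lowest libraries for the fatty acid branch and the highest for the sterol branch, with no overlap on either. Acaca and Tm7sf2 had 0 counts in knockout back 1, and Lss and Stard4 had under 10 counts in knockout back 2. Without Acaca, Tm7sf2 and Lss the difference between branches was 0.40, 0.44 and -0.22 in knockout back, -0.17, -0.36 and -0.04 in knockout tail, and -1.40, -1.44 and -1.08 in control tail. The sterol mean without Tm7sf2 and Lss was 13.26, 13.41 and 12.66 in knockout back, 12.70, 12.57 and 12.64 in knockout tail, and 13.10, 13.12 and 13.09 in control tail. On these 16 genes knockout tail still lay below control, and knockout back spanned both. These branch values are a description with no test, on counts that still carry the shift between library sets.

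**Figure D1:**
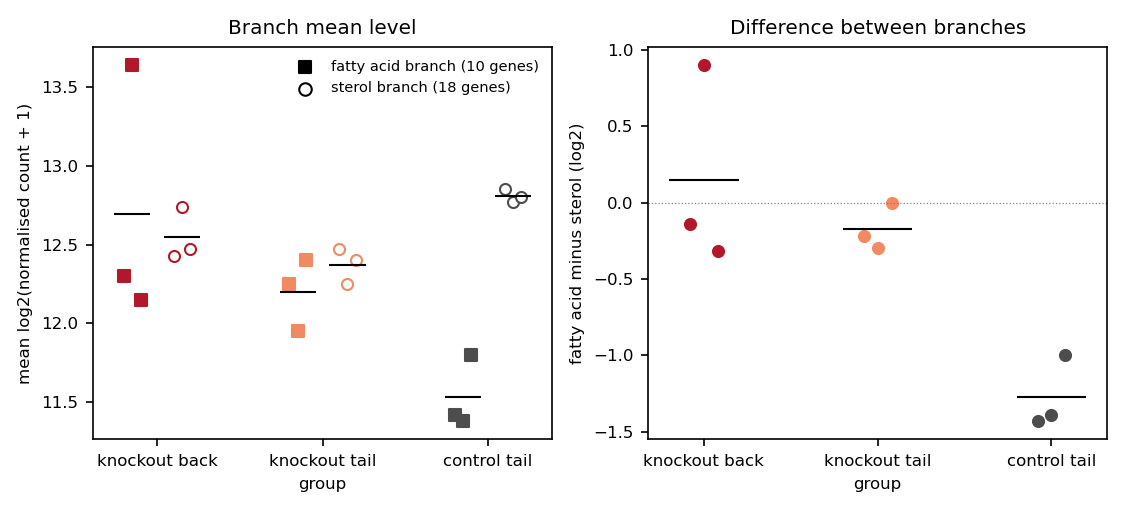
Left, the mean of log2(normalised count + 1) over the fatty acid branch (filled squares) and the sterol branch (open circles), 1 point per library and a line at the group mean. Right, the fatty acid minus the sterol mean in each library, which lay between -0.32 and 0.90 in the 6 knockout libraries and between -1.43 and -1.0 in the 3 control libraries.

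Knockout tail and control tail differ in the Cre at 1 body site. Of the 34 members, none passed the threshold (limma, Benjamini-Hochberg adjusted p under 0.05 over all genes), against 0.0614% of all genes. At an unadjusted p under 0.05 there were 5 members, against 5.7% of all genes: Fads2, Acly, Elovl1 and Srebf1 were higher in knockout tail and Fdps was lower. All 3 knockout tail libraries exceeded all 3 control libraries for 6 members (Fads2, Acly, Elovl1, Elovl5, Srebf1 and Scap), against 9.7% of genes in the table. All 3 lay below all 3 controls for 7 members, all of the sterol branch (Acat2, Mvk, Mvd, Fdps, Fdft1, Sqle and Nsdhl), against 9.31% of genes. Most of these 7 did not hold on the deposited log2 values. There Acat2, Mvk, Fdft1 and Sqle overlapped control, Nsdhl met it at 12.29, and only Mvd and Fdps stayed apart. The median log2 difference was -0.40 over the sterol branch, 0.71 over the fatty acid branch and 0.12 over the regulators, beside -0.07 over all genes. It was positive for 4 of 18 sterol members and 10 of 10 fatty acid members, although Scd1, Elovl6, Fads1 and Acaca were at or below 0 in at least 1 of the 22 other settings, and the mean counts of Scd1 and Elovl6 were lower in knockout tail. Across 22 other settings the sterol median stayed between -0.53 and -0.29 and the fatty acid median between 0.47 and 1.05.

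Fads2, the desaturase that starts the synthesis of long polyunsaturated fatty acids, lies at chr19:10062765-10101746. It had normalised counts of 2128, 3557 and 3376 in knockout back, 2894, 3213 and 2868 in knockout tail, and 549, 776 and 730 in control tail. Every knockout library of either site stood above every control library, and the 2 knockout groups overlapped. The knockout tail mean was 4.37 times the control mean (2992 ± 192 against 685 ± 120, SD, n = 3 each). The log2 difference was 1.59 ± 0.33 (SE), with a limma adjusted p of 0.24 that ranged from 0.023 to 1 over the other settings. Fads1, the next desaturase of the same pathway and also on chromosome 19, had a log2 difference of 0.22 ± 0.52 and overlapping groups.

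Acly, which cleaves citrate to acetyl-CoA and so feeds both branches, had normalised counts of 24018, 11897 and 11961 in knockout back, 6608, 5568 and 11741 in knockout tail, and 4204, 2151 and 3763 in control tail. All 3 groups were apart in this order, with control lowest and knockout tail 3 just under the lowest knockout back library. On the deposited log2 values knockout back 3 (13.18) lay just under knockout tail 1 (13.22), so the knockout groups overlapped. Its log2 difference between knockout tail and control tail was 1.04 ± 0.42 (limma adjusted p = 0.84). Acaca, which makes malonyl-CoA, the building unit of fatty acids, had counts of 0, 3365 and 737 in knockout back, 868, 788 and 1564 in knockout tail, and 471, 426 and 996 in control tail. Its groups overlapped, and the 0 stood in a library with many genes at 0. Fasn, the fatty acid synthase, had counts of 8205, 8518 and 3120 in knockout back, 2329, 3645 and 3623 in knockout tail, and 2756, 1724 and 1698 in control tail. Its 3 knockout back libraries exceeded all controls, and knockout tail overlapped control. The elongases Elovl1 and Elovl5 had knockout tail means 1.67 and 1.46 times the control means, with log2 differences of 0.84 ± 0.27 and 0.70 ± 0.38 (limma adjusted p = 0.57 and 1).

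Scd1 and Scd2 are closely related stearoyl-CoA desaturases, which make monounsaturated fatty acids. How reads shared by such copies were counted is not given in the sources used here. Scd1 had counts of 147097, 105580 and 4382 in knockout back, 6922, 2613 and 8060 in knockout tail, and 5871, 6333 and 9149 in control tail. Scd2 had counts of 10082, 11664 and 10802 in knockout back, 11808, 4615 and 21921 in knockout tail, and 2006, 7948 and 8040 in control tail. Scd1 was high in 2 knockout back libraries only, with knockout back 3 inside the range of the tail libraries. On these counts Scd2 was at a like level in all 3 knockout back libraries and lowest in control library 1. On the deposited log2 values Scd2 was 13.90 and 14.10 in knockout back 1 and 2 and 12.93 in knockout back 3. Elovl6, which elongates palmitate to stearate, had counts of 63139, 80139 and 5025 in knockout back, 6308, 2372 and 2199 in knockout tail, and 3418, 4108 and 4817 in control tail. It shared with Scd1 the high values in knockout back 1 and 2. On the deposited log2 values Elovl6 in knockout back 3 (13.11) also lay above every tail library (at most 12.07).

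**Figure D2:**
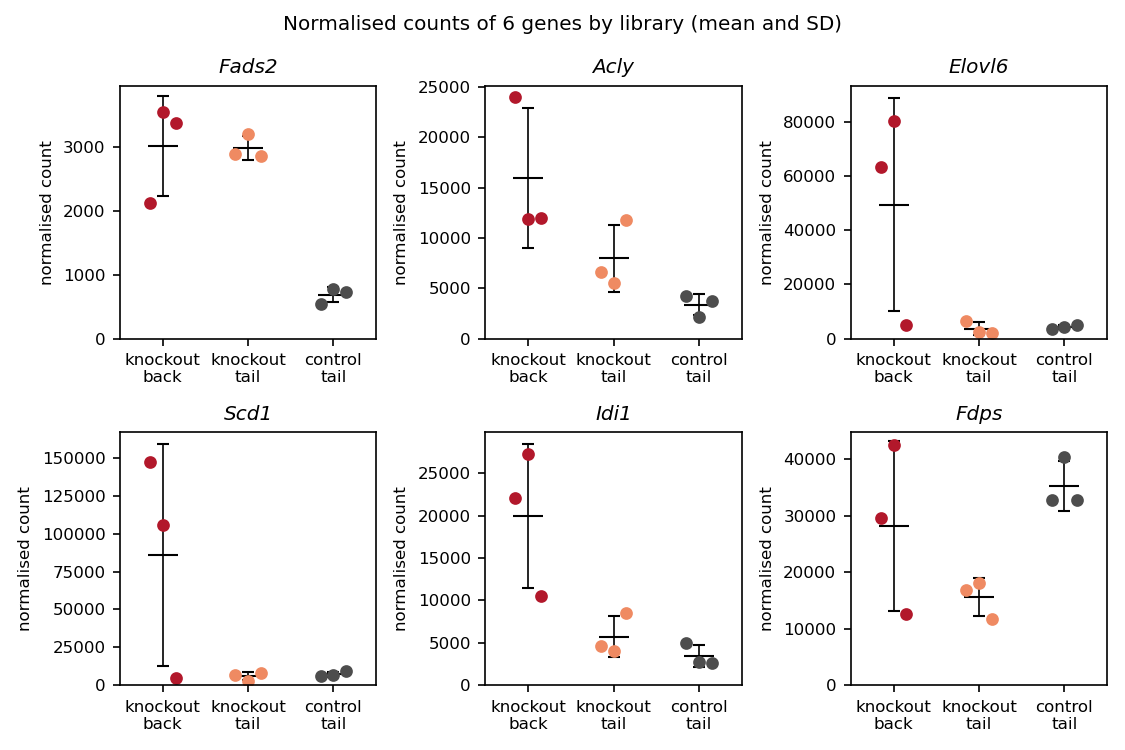
Normalised counts of 6 genes in each library by group, with the mean (long line) and SD (capped bar, n = 3 libraries). Fads2 was high in all 6 knockout libraries, Elovl6 and Scd1 were highest in knockout back 1 and 2, and Fdps was lower in every knockout tail library than in every control library.

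The sterol branch leaned the other way between knockout tail and control tail. Hmgcs1, which condenses acetyl-CoA units into the precursor of mevalonate, had counts of 22599, 21778 and 12879 in knockout back, 8588, 7698 and 14481 in knockout tail, and 8816, 6909 and 10802 in control tail. Its tail groups overlapped (log2 difference 0.17 ± 0.35, limma adjusted p = 1). Idi1, the isomerase that makes the reactive isoprenoid unit, lies at chr13:8885501-8892451 and had counts of 22022, 27240 and 10543 in knockout back, 4588, 4070 and 8516 in knockout tail, and 4963, 2710 and 2623 in control tail. Knockout back was above both tail groups, which overlapped each other. Fdps, which makes farnesyl diphosphate, was taken up after its values were seen, as the 1 sterol member with an unadjusted p under 0.05. It had counts of 29486, 42411 and 12545 in knockout back, 16884, 17995 and 11699 in knockout tail, and 32734, 40379 and 32707 in control tail. Every knockout tail library was below every control library, at a mean 0.44 times that of control, and knockout back spanned both (log2 difference of knockout tail -0.84 ± 0.25, limma adjusted p = 0.54).

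Fdft1, the squalene synthase, had counts of 18075, 25128 and 9030 in knockout back, 8757, 5162 and 6513 in knockout tail, and 10451, 18139 and 10587 in control tail. Knockout tail was the lowest group, with no overlap with the other 2 groups. On the deposited log2 values knockout tail 3 (13.10) lay just above control library 1 (13.09). Sqle, which makes squalene epoxide and is a rate-setting step of the pathway, had counts of 19806, 9775 and 11531 in knockout back, 11301, 10501 and 14571 in knockout tail, and 22562, 15170 and 23005 in control tail. It was lower in every knockout tail library than in every control library, and knockout back overlapped both (log2 difference of knockout tail -0.73 ± 0.32, limma adjusted p = 0.9). On the deposited log2 values, though, Sqle in knockout tail 3 (13.99) lay above control library 2 (13.83). Lss, which closes squalene epoxide to lanosterol, had counts of 3048, 4.68 and 3511 in knockout back, 2106, 820 and 2757 in knockout tail, and 2932, 2095 and 2603 in control tail. The largest sterol difference of knockout tail, -0.92 ± 0.90, belonged to Lss, yet its groups overlapped and its error was nearly as large as the difference. For the mevalonate enzymes Mvk, Pmvk and Mvd the log2 differences were -0.61, 0.10 and -0.47, and for Acat2, the thiolase that opens the pathway, -0.46. For the enzymes after lanosterol (Cyp51, Tm7sf2, Msmo1, Nsdhl, Hsd17b7, Ebp, Sc5d and Dhcr7) they ran from -0.66 for Dhcr7 to 0.05 for Tm7sf2. None of these 12 passed the threshold.

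Among the regulators, Srebf1 had normalised counts of 10353, 16787 and 4297 in knockout back, 11582, 13257 and 11214 in knockout tail, and 9256, 6850 and 3950 in control tail. All 3 knockout tail libraries lay above all controls, while knockout back held both the highest and nearly the lowest library. The knockout tail mean was 1.80 times the control mean, with a log2 difference of 1.15 ± 0.42 (limma adjusted p = 0.73). Srebf2 had counts of 13562, 12130 and 14395 in knockout back, 12215, 11634 and 12651 in knockout tail, and 15179, 14143 and 6345 in control tail. The 6 knockout libraries lay close together and control library 3 was the lowest, and no difference exceeded 0.21 (SE 0.33). Scap had counts of 3925, 470 and 3023 in knockout back, 4177, 4214 and 6493 in knockout tail, and 2841, 2631 and 4115 in control tail. Every knockout tail library was above every knockout back and every control library, and knockout back 2 was lowest.

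The 2 Insig genes, whose products retain the Scap complex, differed in level and spread. Insig1, which is itself an SREBP target, had counts of 6089, 3015 and 2666 in knockout back, 4435, 5272 and 2761 in knockout tail, and 5615, 4076 and 12498 in control tail, with control library 3 far above the rest. Insig2 had counts of 5912, 15405 and 25223 in knockout back, 10919, 11503 and 16287 in knockout tail, and 9096, 6577 and 12350 in control tail, with its highest value in knockout back 3 and overlapping groups. Their log2 differences between knockout tail and control tail were -0.44 ± 0.46 and 0.16 ± 0.40 (limma adjusted p = 1 for both). Stard4, which carries sterol between membranes, had a knockout tail mean 0.74 times that of control and overlapping groups.

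**Figure D3:**
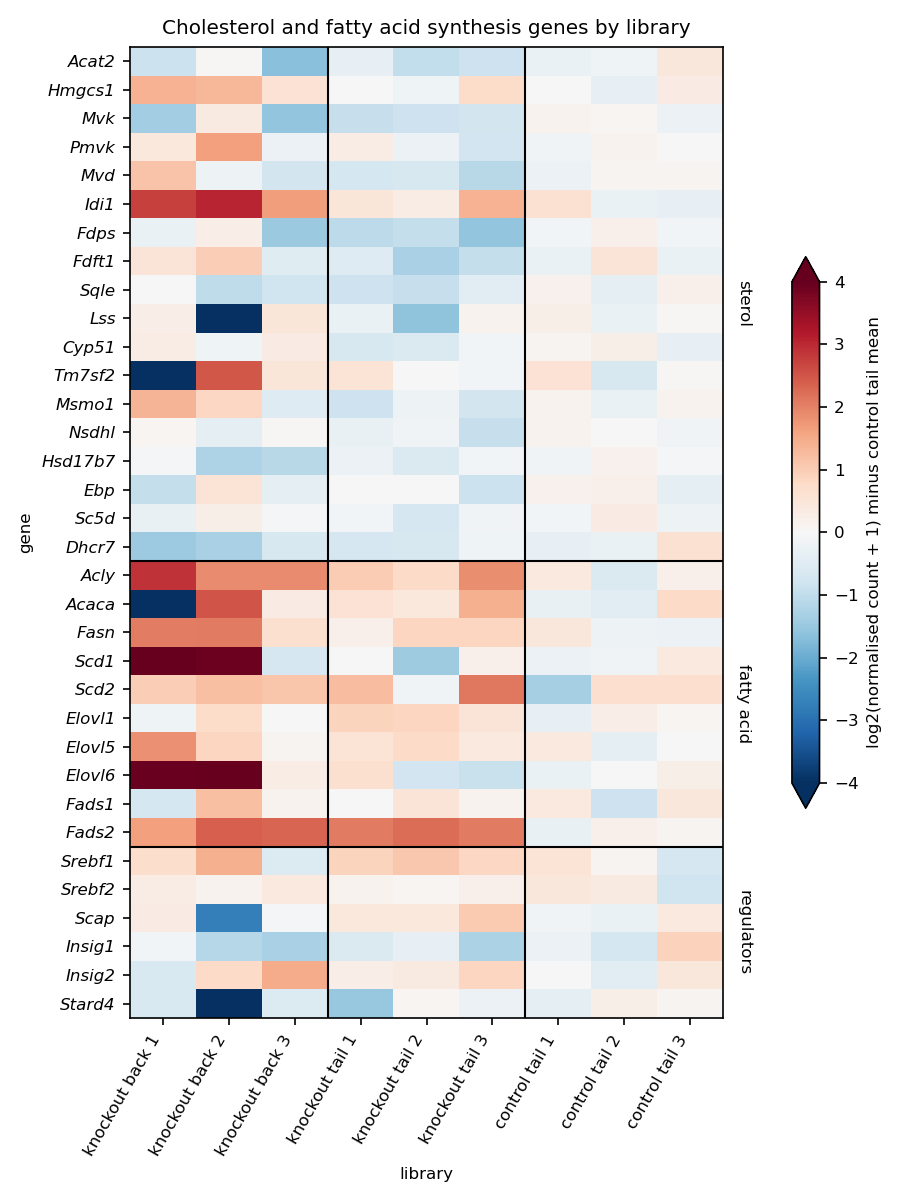
log2(normalised count + 1) of each of the 34 genes (rows) in each of the 9 libraries (columns), minus the mean of the 3 control tail libraries. Colours are cut at -4 and 4. Fads2 was higher in all 6 knockout libraries than in control, and the darkest blue cells are members with under 10 counts in knockout back 1 or 2.

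Knockout back and knockout tail differ in body site within 1 genotype. No member passed the threshold (limma, adjusted p under 0.05), against 0.436% of all genes. At an unadjusted p under 0.05 there were 9 members, all higher in knockout back, against 18.2% of all genes in either direction: Hmgcs1, Idi1, Fdps, Fdft1, Cyp51 and Msmo1 of the sterol branch, and Acly, Scd1 and Elovl6 of the fatty acid branch. Every knockout back library was above every knockout tail library for 3 members (Idi1, Fdft1 and Acly), against 4.55% of genes. Every one was lower for 1 member, Scap, against 10.4% of genes. The median log2 difference was 0.29 over the sterol branch (12 of 18 positive), 0.17 over the fatty acid branch (7 of 10 positive) and -0.24 over the regulators, beside -0.18 over all genes. The sterol median stayed above the all-gene median in 22 of 22 other settings, by 0.19 to 1.06, and the fatty acid median in 21 of 22.

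The 4 largest log2 differences of knockout back over knockout tail were 3.03 ± 0.61 for Elovl6, 2.87 ± 1.0 for Scd1, 1.68 ± 0.44 for Idi1 and 1.21 ± 0.35 for Fdft1 (limma adjusted p = 0.078, 0.19, 0.12 and 0.15). Fads2 stood at -0.01 ± 0.31, and Srebf1 at -0.37 ± 0.40. Msmo1, which removes methyl groups from sterol intermediates, averaged 39348 ± 21797 in knockout back and 15831 ± 3884 in knockout tail (SD, n = 3 each), a log2 difference of 1.13 ± 0.32 (limma adjusted p = 0.14). With the 7 libraries of the larger set alone, 6 members passed the threshold: Hmgcs1, Idi1, Fdps, Msmo1, Scd1 and Elovl6, all higher in knockout back. In that setting knockout back consists of libraries 1 and 2. With those 2 left out instead, no member passed, and the log2 difference of Scd1 was -0.81, that of Hmgcs1 -0.16, that of Elovl6 1.04 and that of Idi1 0.29.

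Knockout back and control tail differ in genotype and body site together, and share libraries with the comparisons above. Here 4 members passed the threshold (limma, adjusted p under 0.05), against 3.34% of all genes, and all 4 were higher in knockout back, against 1.05% of all genes. Elovl6 rose by 3.47 ± 0.64 on the log2 scale (adjusted p = 0.041), Idi1 by 2.38 ± 0.46 (0.044), Fads2 by 1.58 ± 0.33 (0.048) and Acly by 1.99 ± 0.42 (0.0498), each higher in 3 of 3 libraries than in all controls. At an unadjusted p under 0.05 there were 11 members, against 24.6% of all genes: Hmgcs1, Pmvk, Msmo1, Fasn, Scd1 and Elovl5 were also higher, and Dhcr7 was lower. All knockout back libraries exceeded all controls for 7 members, the 4 named and Hmgcs1, Fasn and Scd2, against 7.41% of genes. On the deposited log2 values Hmgcs1 and Scd2 overlapped: knockout back 3 (13.57 and 12.93) lay under control library 3 (13.60 and 13.59). All lay below all controls for Dhcr7 and Stard4, against 15.6% of genes.

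The 4 calls were close to the threshold. Over the 13 other settings and 9 fits with 1 library left out, the adjusted p (limma) ranged from 0.0087 to 0.73 for Idi1, 0.013 to 0.63 for Acly, 0.0086 to 0.69 for Elovl6 and 0.031 to 0.26 for Fads2. The sign held in 22 of 22 of them for each of the 4. These include the larger set alone and its repeats without knockout tail 3 or knockout back 3, which give the same estimates. Without knockout back 1 and 2, none of the 4 passed, and the log2 differences were 0.64 for Idi1, 0.84 for Acly, 0.99 for Elovl6 and 1.85 for Fads2. Fads2 was thus as large without the libraries that stood apart, and the other 3 were smaller. Scd1 had a log2 difference of 3.14 ± 1.06 in all libraries (adjusted p = 0.12) and -1.46 without knockout back 1 and 2. The median was -0.06 over the sterol branch (7 of 18 positive) and 1.30 over the fatty acid branch (9 of 10 positive), beside -0.26 over all genes. Without knockout back 1 and 2 the medians were -0.27 and 0.29. Dhcr7, which completes cholesterol, averaged 3850 ± 1226 in knockout back and 8609 ± 3371 in control tail, a log2 difference of -1.23 ± 0.29 (limma adjusted p = 0.06).

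**Figure D4:**
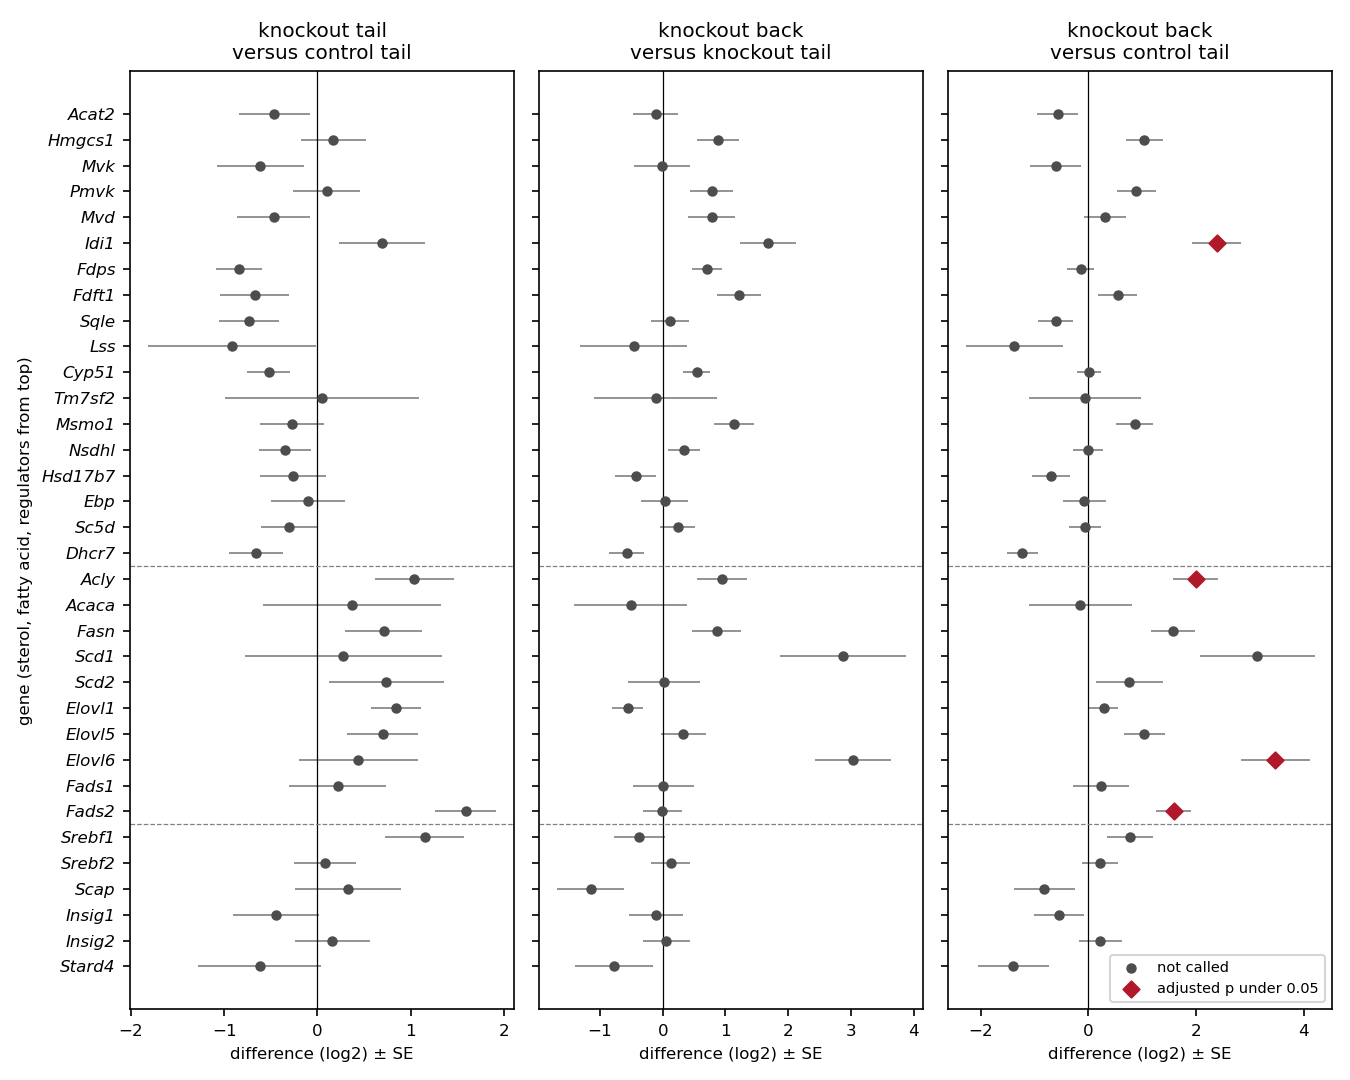
Log2 difference of each member with its standard error from limma with group and library set as terms, for the 3 comparisons, genes from the sterol branch (top), the fatty acid branch and the regulators (bottom). Diamonds mark the 4 genes with an adjusted p under 0.05 (Idi1, Acly, Elovl6 and Fads2), all in knockout back versus control tail.

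Markers of sebaceous gland cells, which make lipid in quantity, moved with several of these results. The summed count of the 11 markers in the table, of 12 listed, was 306042, 305668 and 45405 in knockout back, 39697, 24830 and 30713 in knockout tail, and 33956, 46386 and 32987 in control tail. It was high in the same 2 knockout back libraries that were high for Scd1, Elovl6 and Idi1. Cidea, a lipid droplet protein of sebocytes, had 15552, 16083 and 188 in knockout back, 62.4 to 895 in knockout tail and 120 to 814 in control tail. Awat1, a wax ester synthase, had 3501, 4582 and 0 in knockout back, 0 to 1149 in knockout tail and 0 to 7.29 in control tail. Between 0 and 3 of the 11 markers were at 0 counts in each library, and Awat2 was at 0 in knockout back 3, in 2 knockout tail libraries and in all controls. Fads2 was 3376 in knockout back 3 and 2868 to 3213 in knockout tail. The marker sum in these libraries was 24830 to 45405, against 32987 to 46386 in control tail, but single markers differed. Mgst1 alone gave 22065 of the 24830 in knockout tail 2 and 27605 of the 33956 in control library 1. Between knockout tail and control tail the log2 difference was positive for 7 of the 11 markers, with a median of 0.56. Between knockout back and control tail it was positive for 11 of 11, with a median of 2.14. The marker Krt79 was 18917 in knockout back 3 and 15931 in knockout tail 3, against 1512 to 9199 in control tail. The marker Elovl3 was 29.4 in knockout back 3, against 490 to 1616 in control tail. These counts still carry the shift between library sets. On the deposited log2 values Elovl3 in knockout back 3 (9.81) lay above every control (8.52 to 9.69). Cidea, Fa2h, Awat1, Awat2, Far2, Mgst1 and Pparg did so too, although Awat1 and Awat2 had 0 counts there. Scd3, Mc5r and Krt79 lay within the control range on that scale, and so did Krt79 in knockout tail 3. The part of these markers in the differences of Scd1, Elovl6, Idi1, Hmgcs1, Msmo1, Acly and Fads2 was not tested.

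**Figure D5:**
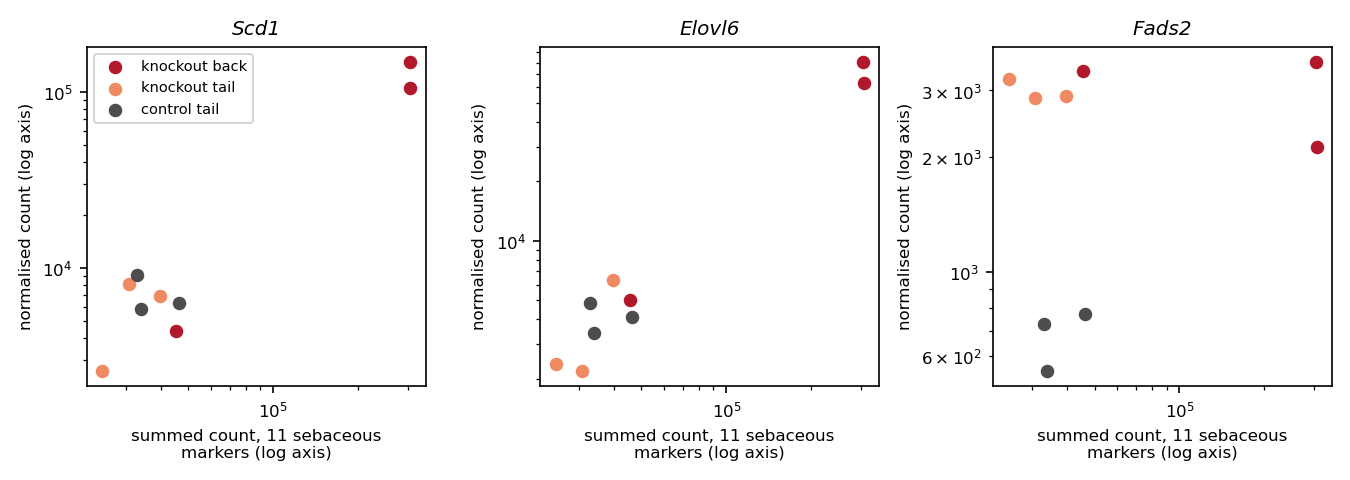
Normalised count of Scd1, Elovl6 and Fads2 (log axis) against the summed normalised count of 11 sebaceous markers (log axis), 1 point per library. Knockout back 1 and 2, at marker sums of 306042 and 305668, were the highest libraries for Scd1 and Elovl6. Fads2 was higher in all 6 knockout libraries than in control, and the part of the markers was not tested.

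Markers of other cell types varied between libraries as well. The summed count of 6 basal keratinocyte markers was 119701, 39208 and 189571 in knockout back, 35909, 12363 and 324383 in knockout tail, and 63565, 99934 and 38508 in control tail, so all groups overlapped. Red cell markers (5 genes) summed to 84023 and 105763 in knockout tail 1 and 2, against 2471 in knockout tail 3, 6044 to 25637 in knockout back and 632 to 9216 in control tail. Their part in the tail comparison was not tested. Schwann cell markers (4 genes) summed to 27833, 19289 and 51318 in knockout back, 14707, 8483 and 14891 in knockout tail, and 10221, 7683 and 14365 in control tail, so knockout back was above all 6 tail libraries. Langerhans and myeloid markers (6 genes) summed to 4394, 16824 and 20166 in knockout back, 1607, 739 and 9727 in knockout tail, and 1121, 2432 and 846 in control tail, so knockout back was above all controls and overlapped knockout tail. Both lists thus separate knockout back from control, as the fatty acid branch and the 4 members past the threshold there do, and their part in those differences was not tested.

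Compared per kilobase of exon, the members differed widely in level. In control tail Fdps was the most abundant member, at 8378 ± 1050 counts per kb, followed by Acat2 at 7479 ± 2170 (SD, n = 3), whose ranges overlapped. Elovl1 followed at 6641 ± 1289, and the other fatty acid members ranked 18 to 34, with Scd1 at 1456 ± 363 and Acaca last at 37.0 ± 18.6. In knockout tail the first rank went to Elovl1, at 11107 ± 1570 counts per kb, and Fdps was at 3688 ± 798. In knockout back Scd1 ranked first, at a mean of 17523 that ran from 896 to 30081. Fads2 stood at 918 ± 237 counts per kb in knockout back, 909 ± 58.4 in knockout tail and 208 ± 36.5 in control tail.

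Exons of 12 members share bases with another annotated gene, and the strand setting of the counting is not given in the sources used here. At least 10% of exon bases were shared for 5 of them: Fdft1 with Ctsb (774 bases, opposite strand), Scap with 5830462I19Rik (985 bases, opposite strand), Hmgcs1 with Gm48342 (557 bases, opposite strand), Fdps with Gm43738 (1124 bases, same strand) and Tm7sf2 with Vps51 (532 bases, same strand). Values of these 5 are therefore uncertain, by an amount that was not measured. Fads2 and Acly shared none.

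The wider sterol pathway was read from 4 further lists. Of 14 other mevalonate and sterol enzymes, 9 SREBP processing and degradation genes, 22 genes of sterol uptake, storage, trafficking and efflux, and 3 of oxysterol synthesis, none passed the threshold in either comparison with knockout tail. At an unadjusted p under 0.05 there were 0, 1, 3 and 0 of them in knockout tail versus control tail, against 5.7% of all genes. There were 4, 1, 9 and 1 in knockout back versus knockout tail, against 18.2% of all genes, and 4, 2, 11 and 0 in knockout back versus control tail, against 24.6%. In knockout back versus control tail 1 of these genes passed, against 3.34% of all genes: Abca1, the cholesterol efflux pump and a target of the LXR receptors. Abca1 had normalised counts of 10402, 5706 and 2917 in knockout back, 1427, 3844 and 3057 in knockout tail, and 461, 353 and 311 in control tail. Every knockout library was above every control, with a log2 difference of 3.11 ± 0.51 for knockout back (limma adjusted p = 0.032) and 2.11 ± 0.51 for knockout tail (limma adjusted p = 0.33). Erlin2, which takes part in sterol-driven degradation in the endoplasmic reticulum, averaged 7733 ± 2700 in knockout tail and 2255 ± 720 in control tail (SD, n = 3 each), with no overlap and a log2 difference of 1.32 ± 0.27 (limma adjusted p = 0.22). In knockout back it averaged 4698 ± 1730, overlapping knockout tail.

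Soat1, which esterifies cholesterol for storage, had counts of 35346, 40318 and 1125 in knockout back, 3096, 2166 and 3190 in knockout tail, and 1759, 1501 and 2716 in control tail. It was high in the 2 knockout back libraries with high sebaceous markers and low in the other 7. Lipa, the lysosomal enzyme that frees stored cholesterol, was the reverse, with 171, 24.6 and 3652 in knockout back, 3909, 5135 and 6464 in knockout tail, and 3206, 2805 and 3274 in control tail. The log2 difference of knockout back was -2.58 ± 0.55 for Lipa against knockout tail and 3.18 ± 0.92 for Soat1 against control tail (limma adjusted p = 0.088 and 0.091). Mbtps1, the first protease that cuts SREBP precursors, averaged 4927 ± 2363 in knockout back and 1790 ± 362 in control tail, with no overlap (log2 difference 1.04 ± 0.41, limma adjusted p = 0.17). Cyp7b1, an oxysterol hydroxylase, was at 0 counts in all 3 knockout tail libraries and at 0 to 151 in control tail. Hsd3b7, a bile acid enzyme, was at 0 in knockout back 2 and from 2748 to 5579 in the other libraries.

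The wider fatty acid synthesis list held 24 genes in the table. None passed in either comparison with knockout tail, where the median log2 difference was 0.18 for knockout tail versus control tail and 0.59 for knockout back versus knockout tail, with 2 and 7 genes at an unadjusted p under 0.05, against 5.7% and 18.2% of all genes. In knockout back versus control tail 14 of the 24 had an unadjusted p under 0.05, against 24.6% of all genes, and 2 passed, against 3.34%: Hacd2, the dehydratase of the elongation cycle, was higher, and Elovl7, an elongase of saturated chains, was lower. Hacd2 had counts of 43294, 32449 and 9000 in knockout back, 4634, 2645 and 5459 in knockout tail, and 2697, 3986 and 3054 in control tail. It was highest in knockout back 1 and 2, and knockout back 3 was also above every tail library (log2 difference 2.93 ± 0.54, limma adjusted p = 0.041). Elovl7 had counts of 0, 0 and 2034 in knockout back, 1873, 2840 and 4948 in knockout tail, and 2028, 2022 and 1554 in control tail. It was at 0 in the 2 libraries with many genes at 0, and knockout back 3 lay inside the knockout tail range and just above the highest control (log2 difference -2.82 ± 0.54, limma adjusted p = 0.043). Elovl3, an elongase of sebaceous glands that is also on the sebaceous marker list, had the largest difference from control, 3.92 ± 1.49, with 50996, 40561 and 29.4 in knockout back and 490, 1616 and 1125 in control tail. Elovl4, which makes very long chains, had the largest knockout tail difference, 1.69 ± 1.12, with overlapping groups.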

How the data were processed

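RNA from sorted melanocytes was made into SMART-Seq v4 libraries and sequenced in pairs on a NovaSeq, per the labels' protocols, in 3 groups of 3. The deposited table gives 1 log2 value per gene and library. Per the submitters' processing notes, DESeq2 and GRCm38 were used, while no aligner or counting program is named. From the values themselves, the log2 scale follows a variance-stabilising curve with 7.98 at 0 counts, which understates changes of low genes. The mean over knockout tail 3 and knockout back 3 equalled that over the other 7 libraries in each gene, within 7.14e-09, against 1.5 for the next best of 255 splits. The deposited values thus lack a shift between these sets, taken out without regard to group.

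Undoing the curve and the shift gave counts within 0.004 of whole numbers for 16296 genes. Recovered totals were 45.66 to 67.89 M. No counting intervals are given, since replicate spread is far larger at this depth.

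Differences were tested on the deposited log2 values with limma 3.58.1 (R 4.3.3), with mean-variance trend, robust moderation, and group and library set as terms, whose estimates do not depend on the removed shift. Adjusted p-values are Benjamini-Hochberg over all 16299 genes, with a threshold of 0.05. With 3 against 3 libraries an exact permutation test cannot go below 0.1, so none is given. There were 13 other settings and 9 fits with 1 library left out. Recovery and fits were tested on simulated data. Levels between genes were divided by exon length from GENCODE vM21.

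The members, lists and tests were chosen with earlier results of these data known. Values in every library are given for the SREBP regulators, for Hmgcs1, Sqle, Lss, Fasn, Acaca, Scd1 and Scd2, for members past the threshold, and for the 4 largest differences of each comparison. From other lists, genes past the threshold and the largest difference of each comparison are named. Some other sterol pathway genes are not reported here.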

Additional observations from a re-analysis of the deposited data

How the results depend on the processing

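The count of genes past the threshold was unstable, which limits every call above. For knockout tail versus control tail it was 10, and 0 with group as the only term, with either voom fit, on log2 of the count plus 1 or plus 10, with no trend or robust moderation, with the replicate block, without knockout back 1 and 2, and with the larger set only. It was 130 with array weights and 0 to 8 with 1 library left out. For knockout back versus knockout tail it was 71, against 244 with group only, 225 and 197 with voom (with the set and with group only), 189 on log2 of the count plus 1, 133 with no trend, 6 with array weights, 21 with the replicate block, 1 without knockout back 1 and 2, 1637 with the larger set only, and 2 to 1642 with 1 library left out. For knockout back versus control tail it was 545, against 163 with group only, 317 with voom and group only, 293 with libraries centred on their medians, 37 with array weights, 42 with the replicate block, 8 without knockout back 1 and 2, 2371 with the larger set only, and 26 to 2385 with 1 library left out.

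Members past the threshold numbered 0 between the tail groups, and 2 with array weights (Fads2 and Fdps). Between knockout back and knockout tail they numbered 0, against 2 with voom and the set, 6 with the larger set only and 0 to 6 with 1 library left out. Between knockout back and control tail they numbered 4, against 0 with group only, with voom and group only, with array weights, with the replicate block and without knockout back 1 and 2, and 9 with the larger set only. With 1 library left out they numbered 0 to 9. The count of 9 came from leaving out knockout tail 3 or knockout back 3, and leaving out any 1 of the other 7 gave 0 or 1. Without either of those 2, the set term absorbs the other, so both fits repeat the estimates of the larger set only.

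Centring libraries on their medians moved the median of all genes by 0.11, 0.53 and 0.64 in the 3 comparisons. The sterol median was then 0.82 for knockout back versus knockout tail and 0.59 versus control tail, and the fatty acid median 0.70 and 1.94. With 1 library left out the sterol median of knockout back over knockout tail ran from 0.27 to 0.44. Without knockout back 1 and 2 the medians versus control tail were -0.27 (sterol) and 0.29 (fatty acid). Hmgcs1 then changed sign, to -0.16 versus knockout tail and -0.26 versus control tail, as did Scd1, to -0.81 and -1.46. The lone knockout back library is assumed there to vary like the other groups. The causes were not tested.

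Replicate numbers showed no pairing where it could be read. The correlation of deviations between same-numbered libraries ran from -0.17 to 0.08, apart from -0.7 between knockout back 3 and knockout tail 3. Those 2 share a set, and their joint mean equals that of the other 7 libraries in each gene. That value therefore cannot show pairing or its absence. The replicate block took the place of the set and ended the 4 member calls. Leaving out members under 10 counts was chosen after seeing the data and changed the group means of the branch difference to 0.21, -0.19 and -1.31 in knockout back, knockout tail and control tail, against 0.15, -0.17 and -1.27.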

Other observations

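Fatty acid oxidation and lipid storage genes were measured alongside. Of 19 fatty acid oxidation genes in the table, none passed the threshold in knockout tail versus control tail or in knockout back versus knockout tail (limma, adjusted p under 0.05), and 1 and 6 of them had an unadjusted p under 0.05, against 5.7% and 18.2% of all genes. In knockout back versus control tail 8 had an unadjusted p under 0.05, against 24.6% of all genes, and 1 passed, against 3.34%: Acadm, the dehydrogenase of medium chains. Acadm had normalised counts of 10084, 9298 and 5741 in knockout back, 17087, 12869 and 10241 in knockout tail, and 19627, 20218 and 21208 in control tail. Every knockout back library was below all 6 tail libraries, a log2 difference of -1.07 ± 0.19 from control tail (limma adjusted p = 0.036). Cpt1a, which admits fatty acids to mitochondria, averaged 3217 ± 2552 in knockout tail and 792 ± 162 in control tail (SD, n = 3 each), with overlap. Ppara, a receptor that switches on oxidation genes, had 1865, 633 and 247 in knockout back and 114, 118 and 244 in control tail (log2 difference 1.62 ± 0.39, limma adjusted p = 0.06). Cpt1c was at 0 counts in knockout back 1 and 2 and from 253 to 943 in the other 7 libraries.

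Of 15 glycerolipid and lipid droplet genes, none passed in either comparison with knockout tail (limma, adjusted p under 0.05). At an unadjusted p under 0.05 there were 2 and 3 genes, against 5.7% and 18.2% of all genes, and 5 in knockout back versus control tail, against 24.6%. In that comparison 1 passed, against 3.34% of all genes. That gene was Plin2, a coat protein of lipid droplets, with 42009, 39264 and 13590 in knockout back, 9935, 7524 and 7399 in knockout tail, and 9958, 11538 and 12666 in control tail. All knockout back libraries were above all controls (log2 difference 1.57 ± 0.31, limma adjusted p = 0.044), and the 2 highest were those with high sebaceous markers, whose part was not tested. Mgll, a lipase that splits monoglycerides, averaged 250537 ± 19074 in knockout tail and 151151 ± 44857 in control tail with no overlap (log2 difference 0.83 ± 0.26, limma adjusted p = 0.57). Gpam, which starts glycerolipid synthesis, averaged 4286 ± 3920 in knockout back and 702 ± 110 in control tail and overlapped. Cidec, a droplet fusion protein, had 1414, 206 and 223 in knockout back and 0 in every knockout tail library.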
